A study of Mus musculus with 6 samples.

Results

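The genes described here are 10 that act around the microRNA let-7: Lin28a and Lin28b, Trim71, Dis3l2, Drosha, Dgcr8, Xpo5, Dicer1, Ago1 and Ago2. They were taken by symbol, with earlier results of these data known, and all 10 were found among 31641 genes in the count table. The 6 libraries are of poly(A)-selected RNA from E14, an established mouse embryonic stem cell line. The 3 libraries called CON are Nat10 WT and were grown without Dox, and the 3 called KD carry the Nat10 knockdown and were given Dox (doxycycline). Nat10 encodes the enzyme that makes N4-acetylcytidine in RNA, and the study's title asks about its part in pluripotency and in the 2C state, a condition in which stem cells resemble the 2-cell embryo. The drug and the knockdown were always given together, so their effects cannot be told apart. The labels name neither the knockdown construct nor its clones, and do not call the replicates separate cultures, so the p-values rest on a spread between libraries that may be technical.

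Most microRNAs are cut from long primary transcripts. In the nucleus the nuclease DROSHA and its RNA-binding partner DGCR8 release a hairpin, exportin 5 (Xpo5) carries it to the cytoplasm, DICER1 cuts it to a short duplex, and an Argonaute protein loads a strand and silences messenger RNAs that pair with its seed. Embryonic stem cells transcribe let-7 precursors but hold little mature let-7, because LIN28 proteins bind the precursor, recruit enzymes that add uridines to it, and the exonuclease DIS3L2 degrades it. Lin28a, Lin28b and Trim71 are themselves textbook targets of let-7, so LIN28 and let-7 repress each other. Mature let-7 is not captured by a poly(A) library and was not measured.

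The let-7 family is shown first because its seed defines the targets counted further on. In the RefSeq table on GRCm38.p6, 13 loci give a mature microRNA with the seed GAGGUAG, which is bases 2 to 8 counted from the 5′ end and stands in capitals here.
let-7a-5p: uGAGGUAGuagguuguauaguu
let-7d-5p: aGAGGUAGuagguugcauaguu
let-7e-5p: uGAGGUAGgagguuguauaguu
let-7g-5p: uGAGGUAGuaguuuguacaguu
let-7i-5p: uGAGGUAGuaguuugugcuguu
miR-98-5p: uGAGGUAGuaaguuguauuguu
These differ from each other outside the seed, so a seed search treats them as 1 family.

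LIN28 proteins recognise the letters GGAG near the end of the loop of many let-7 precursors. Of the 13 loci with the seed, 11 have both mature arms in the table, and the letters GGAG occurred between the arms in 8 of them, against 8.07% of 644 mouse hairpins with both arms. The 3 without these letters in that window were let-7b, let-7c-2 and miR-98. The other 2 loci, let-7k and miR-1961, have only 1 mature arm in the table. Between that arm and the hairpin's end GGAG occurred in miR-1961 and not in let-7k. The arm of miR-1961 lies near the 3′ end of its hairpin, so its GGAG is not in a loop that follows a 5′ arm. The next 3 sequences run from the first base of the mature 5′ arm to the last of the 3′ arm, with GGAG in capitals where it occurs.
pre-let-7g, at chr9:106178840-106178927 on the forward strand: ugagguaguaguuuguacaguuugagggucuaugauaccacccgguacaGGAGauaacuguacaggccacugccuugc
pre-let-7i, at chr10:122985640-122985724 on the reverse strand: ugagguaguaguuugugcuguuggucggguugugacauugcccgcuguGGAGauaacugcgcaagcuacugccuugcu
pre-miR-98, at chrX:151913214-151913321 on the forward strand: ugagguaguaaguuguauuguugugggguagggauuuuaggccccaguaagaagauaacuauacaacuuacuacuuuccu
The coordinates are those of the whole annotated hairpin, and a match to 4 letters is a description, not a measured binding site.

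Library totals were 35304394 to 39450202 counts for CON and 33770755 to 39524273 for KD, and Nat10 fell 5.44-fold, from 149 ± 2.93 to 27.4 ± 1.24 CPM (SD, n = 3 each; edgeR adjusted p = 4.21e-14). CPM are counts set to the same library total, here with TMM scaling, which assumes that most genes do not differ between libraries. Whether that holds here was not tested. Every level and fold change below is on the TMM scale unless stated. Of 18019 genes tested, 11344 (63%) were called, 5801 higher and 5543 lower in KD. With libraries scaled by their size only, every log2 fold change was higher by about the same amount: the median over all genes tested went from 0.02 to 0.25, and the share of called genes that were higher went from 51.1% to 70.1%. The labelled cell type was checked on 9 embryonic stem cell markers, whose summed level was 6370 to 6420 CPM in CON and 2230 to 2320 CPM in KD. All 9 fell, by a median log2 fold change of -1.59.

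Of the 10 genes, 6 fell in KD, 3 rose and 1 was not called, and the CPM of the groups did not overlap for 9 of them. Over all genes tested, 30.8% fell, 32.2% rose and 67.1% showed no overlap, so the share called is read against that background. The falls of Lin28a, Trim71, Ago2 and Xpo5 and the rises of Lin28b and Dis3l2 kept direction and threshold in each of 13 alternative analyses. Dicer1, Drosha, Dgcr8 and Ago1 changed by so little that their call or sign depended on the analysis. The median log2 fold change of the 10 was -0.18 with TMM scaling and 0.05 by library size only. In the authors' deposited table, which gives CON over KD, the log2 fold changes of the 10 genes have the opposite sign by construction, such as 1.52 for Lin28a, -0.60 for Lin28b and 1.13 for Ago2. In bulk RNA, fewer cells with a transcript and less transcript per cell cannot be told apart.

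**Figure D1:**
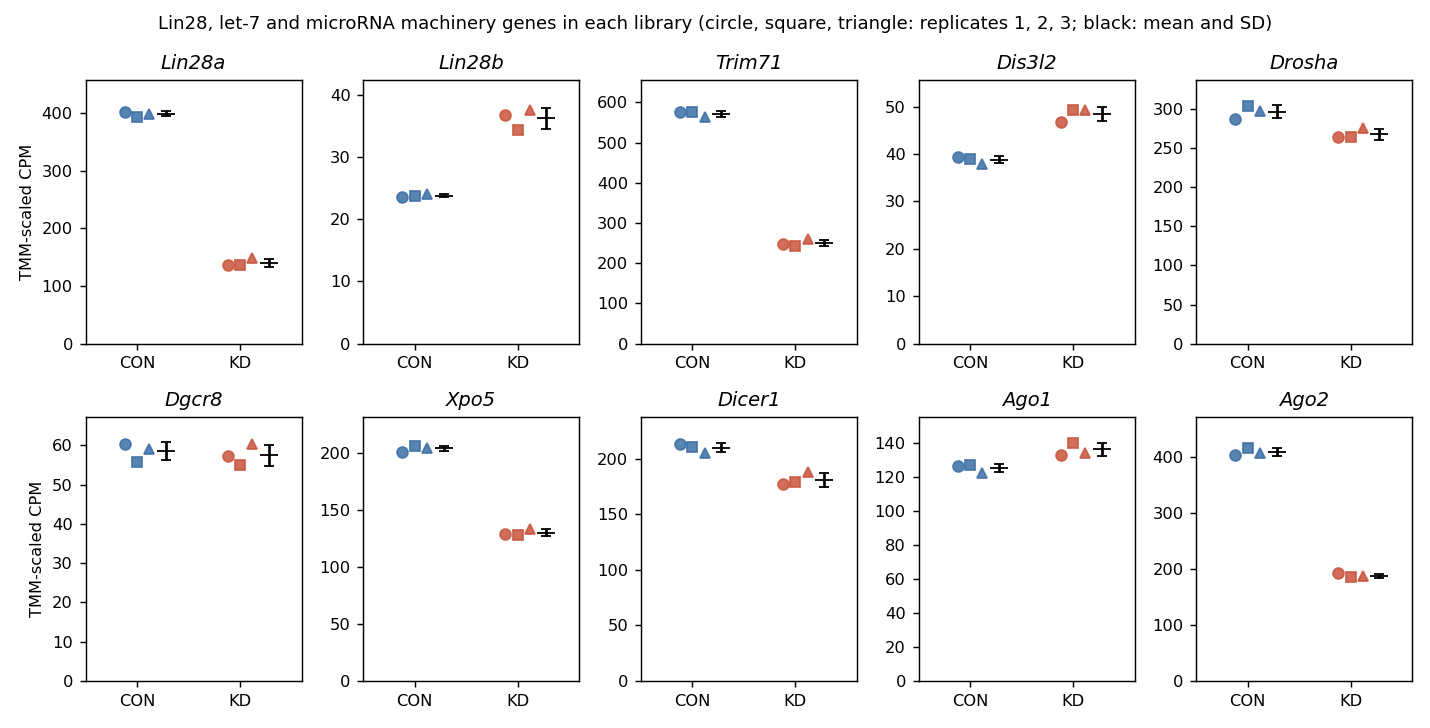
TMM-scaled CPM (linear axes from 0) of each gene in 3 CON and 3 KD libraries; symbols are replicates 1, 2 and 3, and black marks the mean and SD. The groups are far apart for Lin28a, Trim71 and Ago2 and overlap for Dgcr8.

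Lin28a and Lin28b, the 2 blockers of let-7 maturation, moved in opposite directions. Lin28a encodes the RNA-binding protein that is the usual LIN28 of mouse embryonic stem cells and lies at chr4:134003330-134018841 on the reverse strand (GRCm38, GENCODE M21). It had 402, 393 and 398 CPM in CON replicates 1 to 3 and 136, 136 and 148 CPM in KD replicates 1 to 3. Every KD library was far below every CON library, a 2.84-fold fall (log2 fold change -1.51, SE 0.0456, edgeR adjusted p = 6.55e-13). Lin28b, its paralog with the same cold shock domain and zinc knuckles, lies at chr10:45376620-45486395 on the reverse strand. It had 23.5, 23.7 and 24.1 CPM in the CON libraries and 36.7, 34.4 and 37.6 CPM in the KD libraries. Its groups did not overlap, and it rose 1.52-fold (log2 fold change 0.61, SE 0.0661, edgeR adjusted p = 9.76e-07).

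Against the level of Lin28a, the rise of Lin28b was small. Per kilobase of exon, Lin28a stood at 99.5 ± 1.08 CPM in CON and 35.1 ± 1.72 in KD, and Lin28b at 2.62 ± 0.0303 in CON and 3.99 ± 0.182 in KD (SD, n = 3 each). The length-scaled level of Lin28a was 38.7, 37.7 and 37.5 times that of Lin28b in the CON libraries. In the KD libraries it was 8.42, 8.99 and 8.94 times that of Lin28b. The balance between the paralogs therefore shifted 4.33-fold toward Lin28b, by -2.11 on the log2 scale, while Lin28a stayed the more abundant transcript in all 6 libraries. The exact permutation test over libraries gave a 2-sided p = 0.1, the smallest that 3 against 3 libraries allow, and 0.15 after Benjamini-Hochberg adjustment over the 3 ratios tested. A ratio within a library does not depend on how libraries are scaled.

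The fall of Lin28a went with that of the 9 stem cell markers above, and their part in it was not tested. Among 10017 other genes with at least 10 CPM on average, those whose 6 values lay nearest to Lin28a, each gene centred on its CON mean, were Lifr, Ccnb1, Nmnat2, Gars and Lars. Their root mean square distances from it were 0.02 to 0.0329 on the log2 scale, with folds of 2.77 to 2.9. Nearest to Lin28b were Fbh1, Nrbp2, Ptdss1, Zkscan3 and Brf1, at distances of 0.0169 to 0.0334 and with rises of 1.49-fold to 1.53-fold. With only 2 groups, this likeness says little more than that the folds are of similar size.

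Trim71, also called Lin41, encodes a stem cell ubiquitin ligase that binds and represses messenger RNAs, and lies at chr9:114507133-114564369 on the reverse strand. It had 575, 577 and 563 CPM in the CON libraries. The KD libraries stood at 247, 243 and 259 CPM, below every CON library. The fall was 2.29-fold (log2 fold change -1.20, SE 0.0411, edgeR adjusted p = 2.64e-12), against 2.84-fold for Lin28a. Of 3 messenger RNAs reported elsewhere as TRIM71 targets, the p21 gene Cdkn1a, a brake on the cell cycle, rose 1.87-fold, with 58.6 ± 4.06 CPM in CON against 110 ± 6.35 in KD (SD, n = 3 each; edgeR adjusted p = 4.97e-09). The splicing regulator gene Mbnl1 rose 1.21-fold (edgeR adjusted p = 0.0215). The transcription factor gene E2f7 fell 1.58-fold (edgeR adjusted p = 1.49e-07). The number of the 3 that rose was 1 without CON replicate 1, without CON replicate 3 or without KD replicate 3.

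Dis3l2 encodes the exonuclease that degrades uridylated precursor let-7 and lies at chr1:86703808-87050095 on the forward strand. It had 39.4, 39.0 and 37.9 CPM in the CON libraries and 46.7, 49.3 and 49.4 CPM in the KD libraries. Each KD library was above each CON library, a rise of 1.25-fold (log2 fold change 0.32, SE 0.058, edgeR adjusted p = 1.79e-04). Among its neighbours, the uridine-adding enzymes that act with LIN28 differed from each other: Tut7 rose 1.53-fold from 51.8 ± 0.606 to 79.3 ± 6.28 CPM (SD, n = 3 each; edgeR adjusted p = 3.61e-07). Tut4, at 119 CPM in CON against 115 in KD, was not called (edgeR adjusted p = 0.386). Trim25, a cofactor reported for that uridylation, fell 1.32-fold, with 238 ± 3.31 CPM in CON against 181 ± 0.775 in KD (edgeR adjusted p = 5.27e-07). The genes of the LIN28 decay route thus moved in both directions.

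The Microprocessor, which makes the first cut in the nucleus, changed little. Drosha, the nuclease, lies at chr15:12824815-12935291 on the forward strand and had 288, 304 and 298 CPM in CON and 264, 264 and 276 CPM in KD. The KD values were lower without overlap, a 1.11-fold fall (log2 fold change -0.15, SE 0.0421, edgeR adjusted p = 0.00701), but by library size only Drosha was higher in KD (0.08) and not called. Dgcr8, its RNA-binding partner at chr16:18253948-18289246 on the reverse strand, had 60.5, 55.9 and 59.1 CPM in CON and 57.2, 55.0 and 60.4 CPM in KD. These groups overlapped, and the log2 fold change of -0.02 had a 95% interval from -0.15 to 0.10 (edgeR adjusted p = 0.727). By library size only it rose by 0.20 (edgeR adjusted p = 0.00606). Relative to Dgcr8, Drosha went from 6.18, 7.04 and 6.54 times per kilobase in CON to 5.99, 6.23 and 5.93 times in KD, a difference of -0.12 on the log2 scale (exact permutation p = 0.2, also 0.2 adjusted over the 3 ratios).

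Downstream of the Microprocessor, the genes of export and dicing both fell under TMM scaling. Xpo5 encodes exportin 5 and lies at chr17:46202782-46243598 on the forward strand. It had 201, 206 and 204 CPM in the CON libraries and 129, 128 and 133 CPM in the KD libraries. The KD values were all lower and close together, a 1.57-fold fall (log2 fold change -0.65, SE 0.0432, edgeR adjusted p = 4.09e-09). Dicer1, at chr12:104687742-104751952 on the reverse strand, had 213, 211 and 205 CPM in CON and 177, 179 and 188 CPM in KD. Its groups did not overlap and it fell 1.16-fold (log2 fold change -0.21, SE 0.0439, edgeR adjusted p = 5.86e-04). By library size only, the change of Dicer1 was 0.02 and not called, while Xpo5 was still lower at -0.42. The difference between these 2 genes was not tested.

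The Argonautes, which load the mature microRNA, parted. Ago2, the mouse Argonaute that can cleave its target, lies at chr15:73095844-73184935 on the reverse strand. It had 403, 417 and 407 CPM in the CON libraries, against 192, 185 and 187 CPM in the KD libraries. The groups were far apart, a 2.18-fold fall (log2 fold change -1.12, SE 0.041, edgeR adjusted p = 4.87e-12). Ago1, at chr4:126435012-126468583 on the reverse strand, had 126, 127 and 122 CPM in CON and 133, 140 and 134 CPM in KD. It was slightly higher in every KD library (log2 fold change 0.11, SE 0.0455, edgeR adjusted p = 0.0388). This last call was lost in 9 of 13 alternatives, whose adjusted p ranged from 7.86e-06 to 0.21, and the authors' deposited table gives Ago1 an adjusted p of 0.115.

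The balance between these Argonautes shifted toward Ago1. Per kilobase, Ago2 was 1.85, 1.9 and 1.92 times Ago1 in the CON libraries and 0.836, 0.765 and 0.809 times in the KD libraries. Ago2 stood above Ago1 in all CON libraries and, on this length scale, below it in all KD libraries, a shift of 2.36-fold (-1.24 on the log2 scale; exact permutation p = 0.1, the smallest possible, and 0.15 adjusted over the 3 ratios). The size of the shift does not depend on gene length, but the order in KD does: the merged exons are 14031 bases for Ago2 and 8120 for Ago1, and in CPM not divided by length Ago2 was the higher in every KD library. The other Argonaute genes rose: Ago4 had 6.63, 5.97 and 5.72 CPM in CON and 18.4, 16.7 and 16.1 CPM in KD, a 2.8-fold rise from a low level (log2 fold change 1.48, edgeR adjusted p = 5.41e-09). Ago3 had 26.6 CPM in CON and 32.3 CPM in KD (log2 fold change 0.28, edgeR adjusted p = 0.00635). By library size only, Ago2 was lower at -0.89, and Ago3 and Ago4 were higher at 0.51 and 1.71, so of the 4 Argonaute genes only Ago2 fell under both scalings.

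**Figure D2:**
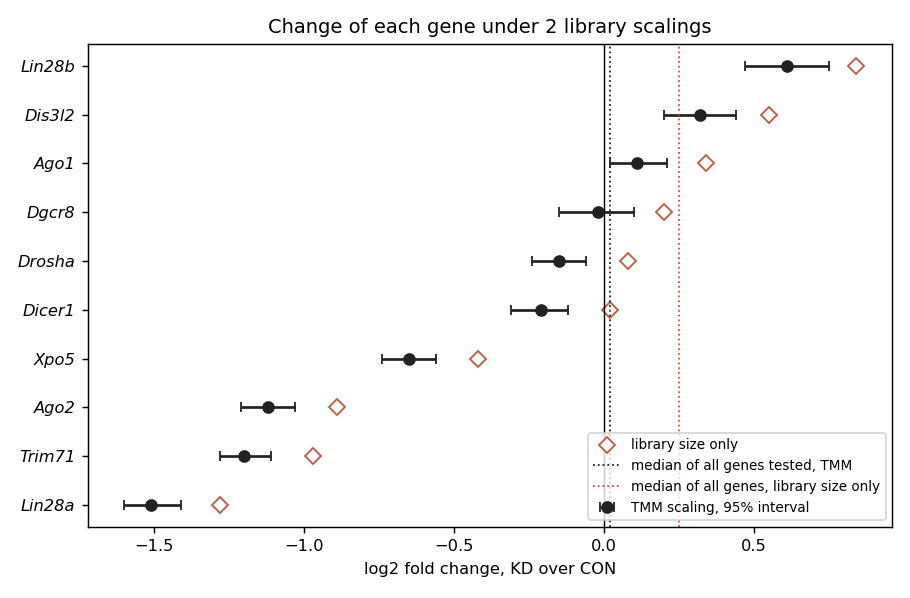
Log2 fold change (KD over CON) of each gene with TMM scaling (black, with the 95% interval of the edgeR fit) and with libraries scaled by size only (open red); dotted lines are the medians of all genes tested, 0.02 and 0.25. The order of the genes is the same under both, and the signs of Dicer1, Drosha and Dgcr8 differ.

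Set on 1 scale of length, the order of the 10 genes changed between the groups. In CON it ran from Lin28a (99.5 CPM per kilobase) over Trim71 (61.3), Drosha (50), Xpo5 (29.7), Ago2 (29.2), Ago1 (15.4), Dicer1 (12.5), Dgcr8 (7.60) and Dis3l2 (4.36) to Lin28b (2.62). Only Xpo5, at 29.3 to 30.0, and Ago2, at 28.7 to 29.7, overlapped among neighbours. In KD Drosha led at 45.2 ± 1.16, ahead of Lin28a at 35.1 ± 1.72 and Trim71 at 26.7 ± 0.878 (SD, n = 3 each). Xpo5 followed at 19.0, then Ago1 at 16.7, Ago2 at 13.4 and Dicer1 at 10.8, and no neighbours in KD overlapped. The lengths are those implied by the authors' FPKM and equal the merged exons in GENCODE M21 for all 10 genes. A gene whose main transcript lacks some of these exons is understated on this scale, and the merged exons of Dicer1 are the longest of the 10 at 16750 bases.

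**Figure D3:**
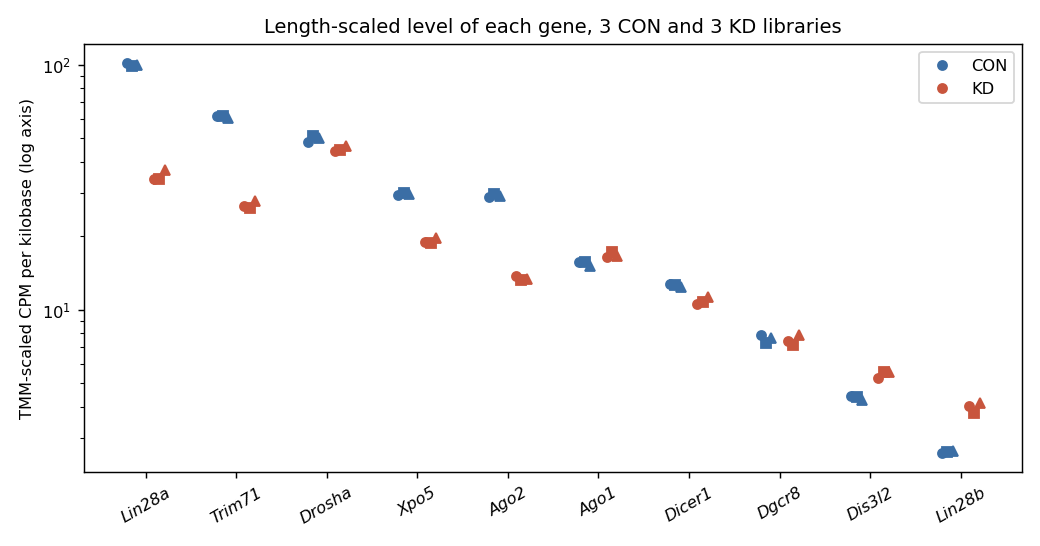
TMM-scaled CPM per kilobase of merged exon (log axis) of each gene in 3 CON (blue) and 3 KD (red) libraries, ordered by the CON mean. Lin28a is highest in CON at 99.5, Drosha is highest in KD at 45.2, and Lin28b is lowest in both.

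Letters that pair with the let-7 seed were searched in the longest annotated 3′ UTR of each gene in the GENCODE M21 transcripts, on the sense strand. An 8-base match is CTACCTCA, and a 7-base match is CTACCTC or TACCTCA outside an 8-base match. An 8-base match was found in 4 of the 10 genes and in 3.6% of the 14988 tested genes with a 3′ UTR. These shares are not a like comparison, since Lin28a, Lin28b and Trim71 are textbook targets of let-7. Lin28a had 2 and Trim71 had 4, while Lin28b and Ago2 had 1 each, in UTRs of 2775, 5512, 4445 and 11064 bases. The median 3′ UTR of the 14988 genes was 1115 bases. Ago1 had a 7-base match only, and Dis3l2, Dicer1, Drosha, Dgcr8 and Xpo5 had none in this window. The 8-base sites of these 4 genes are shown, with the match in capitals. Of the 4 genes, 3 fell and the other rose. All lie on the reverse strand of GRCm38 and are written in the sense of the transcript.
Lin28a, chr4:134005189-134005196: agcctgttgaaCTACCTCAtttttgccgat
Lin28a, chr4:134004551-134004558: tcgccacaaacCTACCTCActgtgttgaaa
Lin28b, chr10:45381022-45381029: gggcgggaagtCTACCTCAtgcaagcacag
Trim71, chr9:114512472-114512479: ttgcctaagtcCTACCTCAgcttaaatttt
Trim71, chr9:114512376-114512383: ataatttctatCTACCTCAactctttgcat
Trim71, chr9:114509047-114509054: gtatggattttCTACCTCAattttggcaaa
Trim71, chr9:114509021-114509028: caaaaagttgtCTACCTCAcgtcggcaccg
Ago2, chr15:73097982-73097989: acaatgtggatCTACCTCAgttaaacagtt
The coordinates are those of the capitals. A match describes the letters and is not evidence of regulation.

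Over all genes, a let-7 match went with almost no difference between the groups. The median log2 fold change was 0.08 for the 539 tested genes with an 8-base match, 0.05 for 1927 with a 7-base match only and 0.04 for 12522 with none. Of the 539, 226 (41.9%) rose and 146 (27.1%) fell, against 35.8% and 32.9% of the genes without a match. Matched genes had longer 3′ UTRs, with a median of 2377 bases against 937. Among UTRs of at least 1500 bases, a limit chosen after the data were seen, the medians were 0.01 with an 8-base match and 0.03 without. The 29 genes with 2 or more 8-base matches had a median of 0.05.

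**Figure D4:**
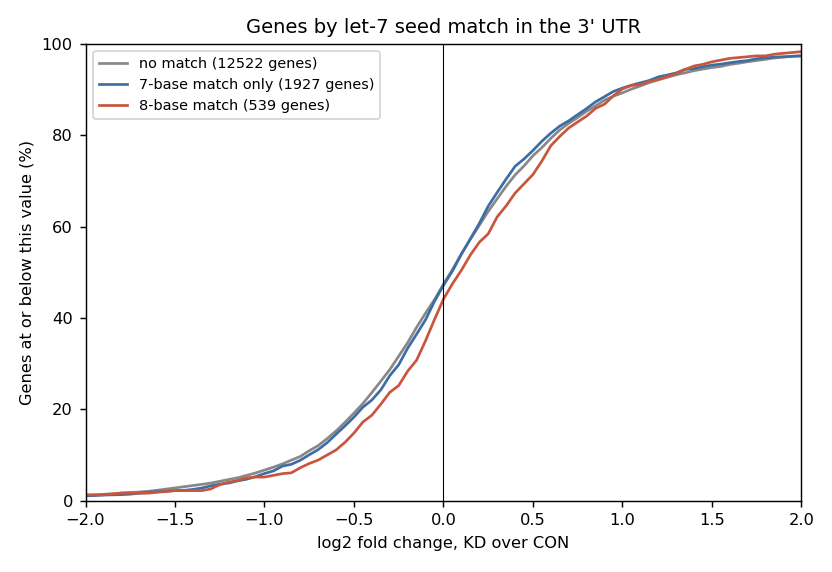
Cumulative share of genes (%) by log2 fold change, KD over CON, for genes with no let-7 match, a 7-base match only or an 8-base match in the 3′ UTR. The 3 curves lie close together, with medians of 0.04, 0.05 and 0.08.

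Known let-7 targets were then read from a list of 35 genes that leaves out the 10 genes above. Of 34 tested, 20 fell (58.8%, against 30.8% of all genes tested), 8 rose (23.5%, against 32.2%) and 6 were not called. Their median log2 fold change was -0.24, against 0.02 over all genes tested. Scaled by library size alone, 13 rose, 14 fell and their median was -0.01, so the balance depends on the scaling. Mycn, a transcription factor of growing stem cells, fell from 101, 106 and 106 CPM in CON to 33, 31.8 and 27.8 CPM in KD, 3.37-fold (edgeR adjusted p = 5.77e-12). Hmga2, a chromatin protein gene with many let-7 sites, fell 3.07-fold from 20.8 ± 0.629 to 6.74 ± 0.769 CPM, Myc fell 2.41-fold and Hmga1 1.83-fold. The cyclin gene Ccnd2 rose 3.04-fold from 5.17 ± 0.226 to 15.7 ± 0.491 CPM (SD, n = 3 each; edgeR adjusted p = 1.53e-09). Fignl2 rose 1.92-fold, the growth factor receptor gene Igf1r 1.29-fold and the nuclease gene Dna2 1.22-fold.

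Within this list the genes were also split by their seed matches. The 17 tested genes with an 8-base match had a median of -0.05, with 8 that fell and 5 that rose. The 14 with a 7-base match only had a median of -0.48, with 10 that fell and 3 that rose. Of the 3 with no match, which include Myc, 2 fell. The 3 genes with 3 of the 8-base matches each, named after their values were seen, did not share a direction: Fignl2 had a log2 fold change of 0.94, Igf2bp1 -0.51 and Nr6a1 -0.66. Acvr1c was not tested, since its counts were 2, 0 and 0 in CON against 4, 4 and 3 in KD.

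The partners of the Microprocessor and of nuclear export mostly fell. Of 20 such genes 14 fell (70%, against 30.8% of all genes tested), 3 rose (15%, against 32.2%) and 3 were not called. Their median log2 fold change was -0.38. Scaled by library size alone, 6 rose, 11 fell and their median was -0.15. Nup153, a nuclear pore protein gene, fell 1.57-fold from 247 ± 7.6 to 158 ± 6.38 CPM (SD, n = 3 each; edgeR adjusted p = 8.48e-09). The helicase gene Ddx5, a Microprocessor cofactor, fell 1.48-fold from 999 ± 18.1 to 677 ± 39 CPM. Ran, the GTPase that drives exportin 5, fell 1.39-fold, with 668 ± 3.38 CPM in CON against 481 ± 8.6 in KD (edgeR adjusted p = 2.65e-08). The cap-binding complex gene Ncbp2 rose 1.55-fold and its partner Srrt, which links the cap to pri-microRNA processing, rose 1.26-fold, as did the helicase gene Dhx9 by 1.31-fold.

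The partners of Dicer and the enzymes of precursor tailing and decay were evenly split. Of 12 genes 5 rose (41.7%, against 32.2% of all genes tested), 5 fell (41.7%, against 30.8%) and 2 were not called. Their median was -0.08, or 0.15 by library size only, where 6 rose and 3 fell. Of the double-stranded RNA-binding partners of DICER1, Prkra rose 1.5-fold from 16.6 ± 0.147 to 25 ± 1.24 CPM (SD, n = 3 each; edgeR adjusted p = 4.76e-06). Tarbp2, at 83.0 CPM in CON against 76.6 in KD, was not called (edgeR adjusted p = 0.0703). Zswim8, which directs Argonaute decay when a microRNA meets certain targets, rose 1.59-fold from 176 ± 9.01 to 281 ± 20 CPM. Tsn fell 1.52-fold and its binding partner Tsnax rose 1.3-fold.

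Silencing partners, Ago3 and Ago4 among them, fell more often than they rose under TMM scaling. Of 33 genes, 19 fell (57.6%, against 30.8% of all genes tested), 7 rose (21.2%, against 32.2%) and 7 were not called. Their median was -0.20. Scaled by library size alone, 14 rose, 13 fell and their median was 0.03. The GW182 scaffold genes, which tie Argonaute to deadenylation, differed: Tnrc6c fell 1.84-fold from 172 ± 6.89 to 93.5 ± 1.55 CPM (SD, n = 3 each; edgeR adjusted p = 3.65e-10). Tnrc6b rose 1.27-fold, and Tnrc6a, at 171 CPM in CON against 170 in KD, was not called (edgeR adjusted p = 0.863). The decapping enzyme gene Dcp2 fell from 129, 127 and 130 CPM in CON to 42.3, 44.6 and 44.8 CPM in KD, 2.93-fold (edgeR adjusted p = 1.31e-12). Xrn1, the exonuclease that follows decapping, fell 2.06-fold from 119 ± 2.24 to 57.9 ± 6.75 CPM. Of the LIM proteins that bind Argonaute, Ajuba fell 1.87-fold while Limd1 and Wtip rose 1.3-fold and 1.49-fold.

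**Figure D5:**
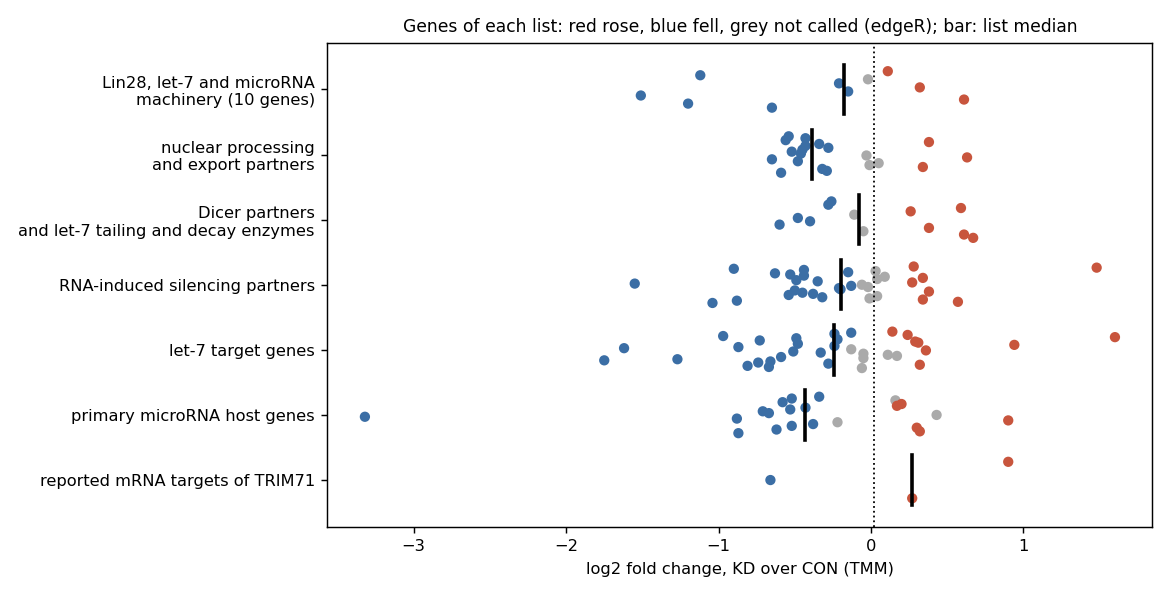
Log2 fold change (KD over CON, TMM) of every tested gene of each list; red genes rose, blue fell and grey were not called in edgeR, black bars are list medians and the dotted line is the median of all genes, 0.02. Medians run from -0.43 for the microRNA host genes to 0.27 for the 3 TRIM71 targets.

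The last group holds transcripts from which microRNAs are cut. Of 27 host genes listed, 25 were found and 21 had enough counts to test. Of these 21, 13 fell (61.9%, against 30.8% of all genes tested), 5 rose (23.8%, against 32.2%) and 3 were not called. Their median was -0.43, and scaled by library size alone 6 rose, 10 fell and the median was -0.20. Wdr82, whose span holds the let-7g hairpin, fell 1.82-fold from 259 ± 2.54 to 142 ± 1.82 CPM (SD, n = 3 each; edgeR adjusted p = 9.81e-11). Huwe1, which holds let-7f-2 and miR-98, fell 1.35-fold from 977 ± 12.5 to 725 ± 20.9 CPM. Mcm7, the host of the miR-106b cluster and a replication gene, fell 1.63-fold, and the imprinted RNA Meg3 fell 1.59-fold. Mir22hg rose 1.87-fold from 10.1 ± 0.599 to 18.9 ± 0.434 CPM.

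Looked up by position after the data were seen, 2 further hosts of let-7 had enough counts to test. Spaca6, whose span holds let-7e on the same strand, had 333, 408 and 272 counts in CON, against 890, 944 and 930 in KD (log2 fold change 1.22, edgeR adjusted p = 9.95e-08). The RNA 6720427I07Rik, which spans let-7a-1, let-7d and let-7f-1, had 70, 56 and 77 counts in CON, against 43, 60 and 71 in KD, and was not called (edgeR adjusted p = 0.145). The hosts of different let-7 loci thus moved in different directions. A spliced host transcript says nothing of how much precursor or mature microRNA was made.

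Markers of other cell types were read beside these genes. Of 8 tested neuronal markers out of 9 listed, 4 rose and 2 fell. Their log2 fold changes ran from -2.72 to 5.01 with a median of 0.09. Their summed level, which the most abundant markers dominate, was 148 to 151 CPM in CON and 89.0 to 96.9 in KD. Fibroblast markers, which would mark feeder cells, summed to 15.1 to 18.1 CPM in CON and 27.6 to 31.6 in KD over 6 of 8 genes listed. Of the 4 of these tested, 3 rose and 1 fell, with log2 fold changes from -1 to 3.44. Endoderm markers summed to 11.7 to 12.1 CPM in CON and 10.9 to 12.5 in KD, with 1 of 5 higher and none lower. Trophectoderm markers summed to 1030 to 1080 CPM in CON and 958 to 999 in KD, and 4 of 5 fell. The part of other cells in the changes of the 10 genes was not tested. Lin28a shares 234 exonic bases with Gm13061 on the opposite strand, Trim71 135 with C130032M10Rik, Ago2 219 with Chrac1 and Dgcr8 825 with Trmt2a, and whether reads were counted by strand is not stated. Gm13061 had between 2 and 12 counts per library and C130032M10Rik 12 to 25. Chrac1, at 29.6 CPM in CON and 32.9 in KD, was not called (edgeR adjusted p = 0.0692). Trmt2a, at 75.1 CPM in CON and 67.1 in KD, was more abundant than Dgcr8. It fell slightly (log2 fold change -0.16, edgeR adjusted p = 0.0193). On the same strand, Dgcr8 shares 327 exonic bases with Gm49776, 88 with Gm24572 and 79 with Mir1306, and Drosha 72 with Gm47288.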

How the data were processed

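Per the submitters' processing notes, FastQC 0.11.9, STAR 2.5.3a, featureCounts and the build mm10 were used. The authors deposited 1 table of raw counts of reads, per the file headers, with 31641 genes and 6 libraries. The deposited table also holds FPKM, used here only for gene lengths, and the authors' own log2 fold change (CON over KD, from the values) and adjusted p-value per gene. The sources used here do not state their test, the annotation, the strand setting or how reads with several mapping places were counted. Columns were matched to samples by treatment and number.

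The test was run with edgeR 4.0.16 in R 4.3.3 on the counts as deposited: filterByExpr (18019 genes), TMM scaling (factors 0.922 to 0.926 in CON and 1.08 to 1.084 in KD), and the robust quasi-likelihood F-test of KD against CON, with Benjamini-Hochberg adjustment over all genes tested and a threshold of 0.05. The code was run on simulated counts in which few genes changed, as many up as down. That run does not test the choice of scaling. SE is the absolute log2 fold change over the square root of F. Of counts from 1 to 20, 70.0% to 71.7% were even in each library, where independent reads would give about 50%. The cause was not tested, and counts divided by 2 were tried as an alternative.

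The 10 genes, the 6 lists and the cell type markers were chosen with earlier results of these data known. Genes named from a list are up to 4 per direction with the smallest p among those called, besides those said to be chosen later or given as not called, and the 5 genes nearest to Lin28a and to Lin28b. The lists carry no test of their own, and their genes were not matched in abundance to all genes tested. Alternatives were other scalings, filters, DESeq2 1.42.0, a replicate block and leaving out each library in turn.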

Additional observations from a re-analysis of the deposited data

How the results depend on the processing

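Of 130 values of the 10 genes under 13 alternatives each, 118 kept their direction and side of the threshold. Scaling by library size only reversed Dicer1 (log2 fold change 0.02), Drosha (0.08) and Dgcr8 (0.20), and 9 alternatives lost the call of Ago1. Under that scaling 3535 genes fell over all tested, 6 partners of nuclear processing rose, 3 Dicer and tailing genes fell, 14 silencing partners rose and 13 let-7 targets rose, each over 1.5 times from the TMM count. The shift applies to all genes alike, and no data here fix the true scale. Leaving out a library gave 1 to 2 rises among the 3 TRIM71 targets. The difference of matched and unmatched medians (0.04) became -0.02 among long 3′ UTRs, and the cause was not tested. Same-numbered CON and KD libraries did not deviate together (correlations -0.061, 0.015 and -0.039), so the numbers were not taken as pairs. With the replicate block, 5559 genes rose and 5347 fell, and among the 10 genes 2 rose and 6 fell, Ago1 being lost (adjusted p = 0.0865 in edgeR). With 3 libraries a group, an exact test cannot go below p = 0.1.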
